A study of Rattus norvegicus with 105 samples.

Results

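The genes described here are 10 textbook targets of the hypoxia-inducible factors in rat muscle: Slc2a1, Pfkfb3, Ldha, Pdk1, Vegfa, Adm, Ero1a, Bnip3, Egln3 and Ankrd37. They were chosen by symbol, each lay on 1 probe set, and they are 10 of 14852 genes with a symbol on the array. Their levels were followed in male Sprague-Dawley rats, bought at about 30 days of age, whose gastrocnemius muscles carried 4 metal pellets, 2 in each hind limb. The pellets were small cylinders of cobalt, nickel, aluminum, copper, depleted uranium, iron, lead or tungsten, or of tantalum, which served as the implanted sham, so control rats also underwent surgery and carried a foreign object. Muscle was taken 1, 3, 6 or 12 months after implantation. The arrays form 35 groups of 3; nickel at 12 months was not analysed here. Each array received RNA pooled from 2 to 3 of the 8 rats assigned to a metal and month, so a p-value measures the spread between pools, not between single rats. The question asked of these genes was whether pellets of cobalt or nickel raised them together, as low oxygen would.

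The hypoxia-inducible factor is a pair of proteins, an oxygen-regulated alpha subunit and the constant partner Arnt. With oxygen present, prolyl hydroxylases mark the alpha subunit for destruction through Vhl; when oxygen is scarce the subunit persists, enters the nucleus and turns on genes for glucose uptake, glycolysis, vessel growth and mitochondrial restraint. Cobalt and nickel ions hinder these iron-dependent hydroxylases in cultured cells and are used there to imitate low oxygen. Since the alpha subunit is controlled mainly as a protein, the mRNA of its targets is the usual readout on arrays.

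The short DNA core that the factor recognises, ACGTG or GCGTG, was searched on both strands in the 250 bases before each gene's start, in RefSeq promoters of assembly GRCr8. A window was found for 9 of the 10 genes, all but Ero1a. The core was present in 6 of these 9, against 36.7% of the 33469 windows of all genes. The windows of Slc2a1, Bnip3, Ldha and Ankrd37 held 4 matches each, the most found; the first 3 are shown, since Ankrd37 was close to background on the arrays, and of these only Slc2a1 passed the test in a metal group below. Capitals mark the matches; CACGC and CACGT are the cores on the opposite strand, and CACGTG reads as a match on both strands, so it counts as a pair of overlapping matches. The windows lie at chr5:138002272-138002521 (plus strand) for Slc2a1, chr1:203154963-203155212 (minus strand) for Bnip3 and chr1:106507842-106508091 (plus strand) for Ldha, printed in the direction of the gene.
Slc2a1: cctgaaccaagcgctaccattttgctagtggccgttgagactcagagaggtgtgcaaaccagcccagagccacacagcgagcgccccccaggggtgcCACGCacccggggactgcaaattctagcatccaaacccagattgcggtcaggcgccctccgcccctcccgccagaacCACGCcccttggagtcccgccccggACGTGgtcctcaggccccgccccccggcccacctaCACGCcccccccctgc
Bnip3: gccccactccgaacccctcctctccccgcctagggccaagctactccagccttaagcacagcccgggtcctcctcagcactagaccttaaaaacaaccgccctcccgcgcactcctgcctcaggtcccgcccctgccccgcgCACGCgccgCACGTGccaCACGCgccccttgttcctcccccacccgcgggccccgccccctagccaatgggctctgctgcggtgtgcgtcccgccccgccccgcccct
Ldha: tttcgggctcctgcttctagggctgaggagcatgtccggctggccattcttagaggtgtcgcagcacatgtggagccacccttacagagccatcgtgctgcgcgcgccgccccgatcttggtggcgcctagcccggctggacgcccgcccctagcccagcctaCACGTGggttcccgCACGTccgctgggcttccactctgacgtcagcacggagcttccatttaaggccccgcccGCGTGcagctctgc
In Slc2a1 the match nearest the start began 16 bases before it, and in Ldha 14 bases before it. Pdk1 and Pfkfb3 held 2 matches each. No match was found in the windows of Vegfa, Adm and Egln3, which says only that these letters are not in these bases. A match is a description of sequence and was not tested as a binding site.

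All levels are log2 intensities, given as mean ± SD of 3 arrays; differences are log2 values ± SE from limma, and a gene passed when its p, adjusted by Benjamini-Hochberg over 22954 probe sets, was below 0.05. Array medians lay between 6.36 and 6.54, and the median of the control probe sets, taken as background, was 4.09. Each array correlated with the rest at 0.970 or more on average, and no 2 arrays held identical values. Skeletal muscle markers were high, as the tissue label states: their mean lay between 13.02 and 13.31 on all arrays but 5 of the 6 month groups, which read 12.56 and 12.99 (aluminum replicates 1 and 3), 12.65 (lead replicate 3), 12.84 (tungsten replicate 3) and 12.89 (cobalt replicate 2). Leaving these 5 out, an alternative chosen after seeing the data, changed no call of the 10 genes in the comparisons that use those groups. In whole muscle, a change in the number of cells of a type cannot be told apart from a change in RNA per cell.

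Of the 10 genes, Slc2a1 and Ero1a were those that passed against tantalum, both by most with nickel at 3 months. The median of the 10 genes did not rise with either metal at that time. Slc2a1, which encodes the glucose transporter GLUT1, rose 2.51-fold with nickel and 1.55-fold with cobalt. Ero1a, the oxidase that drives disulfide formation in the endoplasmic reticulum, rose 1.80-fold with nickel. At 3 months 1 of 10 genes passed with cobalt, where 5.46% of all probe sets passed, and 2 of 10 with nickel, where 3.42% passed. The median difference of the 10 genes was -0.06 with cobalt and -0.01 with nickel, beside -0.05 and -0.02 over all probe sets. With nickel 5 genes were above 0 and 5 below, and with cobalt 4 and 6. The mean level of the 10 genes, Slc2a1 and Ero1a included, was higher with nickel. It ran from 9.01 to 9.19 with nickel, from 8.79 to 8.95 with cobalt and from 8.77 to 8.95 with tantalum.

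**Figure D1:**
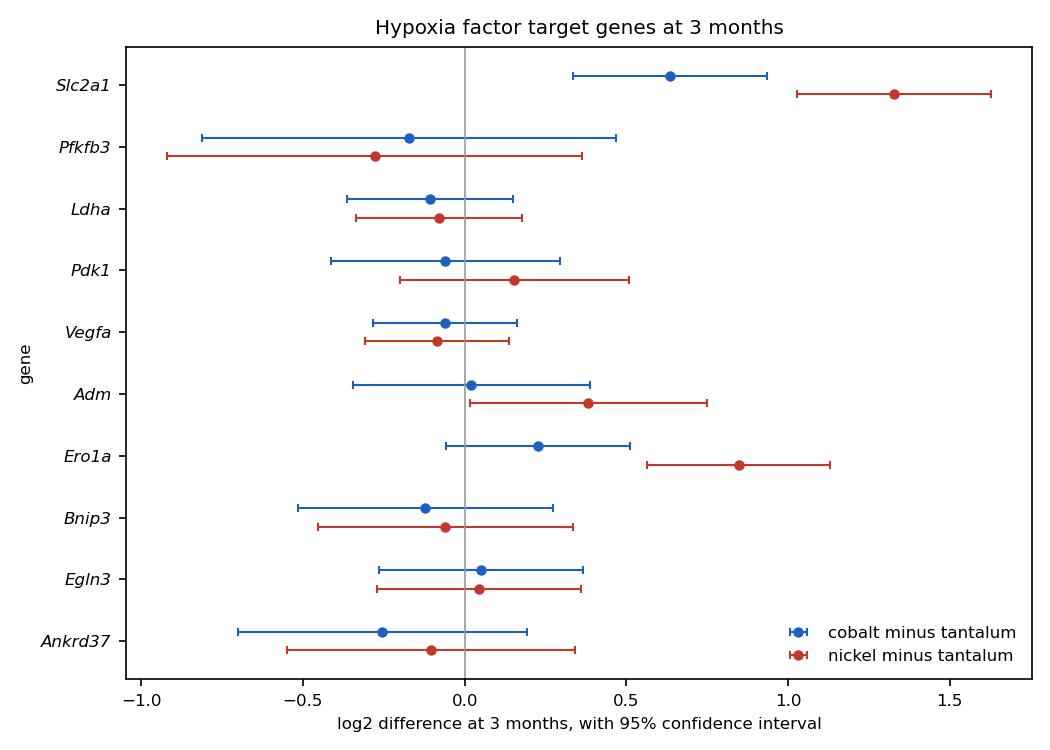
Difference from tantalum at 3 months (x axis, log2) for each of the 10 genes (y axis), cobalt in blue and nickel in red; points are model estimates and bars 95% confidence intervals. Slc2a1 stands at 1.33 with nickel and 0.63 with cobalt and Ero1a at 0.85 with nickel, while the intervals of the other genes include 0 in all cases but Adm with nickel, whose interval starts at 0.02.

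For Slc2a1, the 3 nickel arrays at 3 months read 8.57, 9.12 and 8.81, the cobalt arrays 7.92, 8.14 and 8.36, and the tantalum arrays 7.73, 7.67 and 7.12. All nickel arrays lay above all cobalt arrays, and all cobalt arrays above all tantalum arrays. Such a separation above tantalum was seen for 11.1% of all probe sets with cobalt and 9.75% with nickel. Separation below was seen for 15.1% and 11% respectively. These shares were counted against tantalum at 3 months only, so a separation in any other comparison has no share beside it. The nickel difference was 1.33 ± 0.15 (95% interval 1.03 to 1.63, adjusted p = 3.96e-10). The cobalt difference was 0.63 ± 0.15 (interval 0.33 to 0.94, adjusted p = 0.00216). The nickel result passed in every alternative run, with values from 1.13 to 1.60. The cobalt result did not: the adjusted p was 0.0589 without cobalt replicate 3, 0.136 without tantalum replicate 3, the lowest of its group at 7.12, and 0.112 when only the 6 arrays compared were fitted.

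Outside 3 months Slc2a1 passed against tantalum with neither metal. Nickel at 1 month gave 7.57, 8.12 and 8.00 against tantalum at 7.41, 7.79 and 7.46. One nickel array lay within the tantalum range and the others above it, for a difference of 0.34 ± 0.15 (adjusted p = 0.365). With the other 6 metals of that month as the reference in place of tantalum, the nickel difference at 1 month was 0.63 and passed (adjusted p = 0.000299). Cobalt at 1 month was lower on average, at 7.19, 7.25 and 7.17, but short of the threshold (-0.35 ± 0.15, adjusted p = 0.698). At 6 months Slc2a1 stood at 7.02 ± 0.17 with nickel, 7.08 ± 0.13 with cobalt and 7.01 ± 0.08 with tantalum, and at 12 months at 7.08 ± 0.22 with cobalt and 6.97 ± 0.12 with tantalum. The arrays overlapped at both times.

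**Figure D2:**
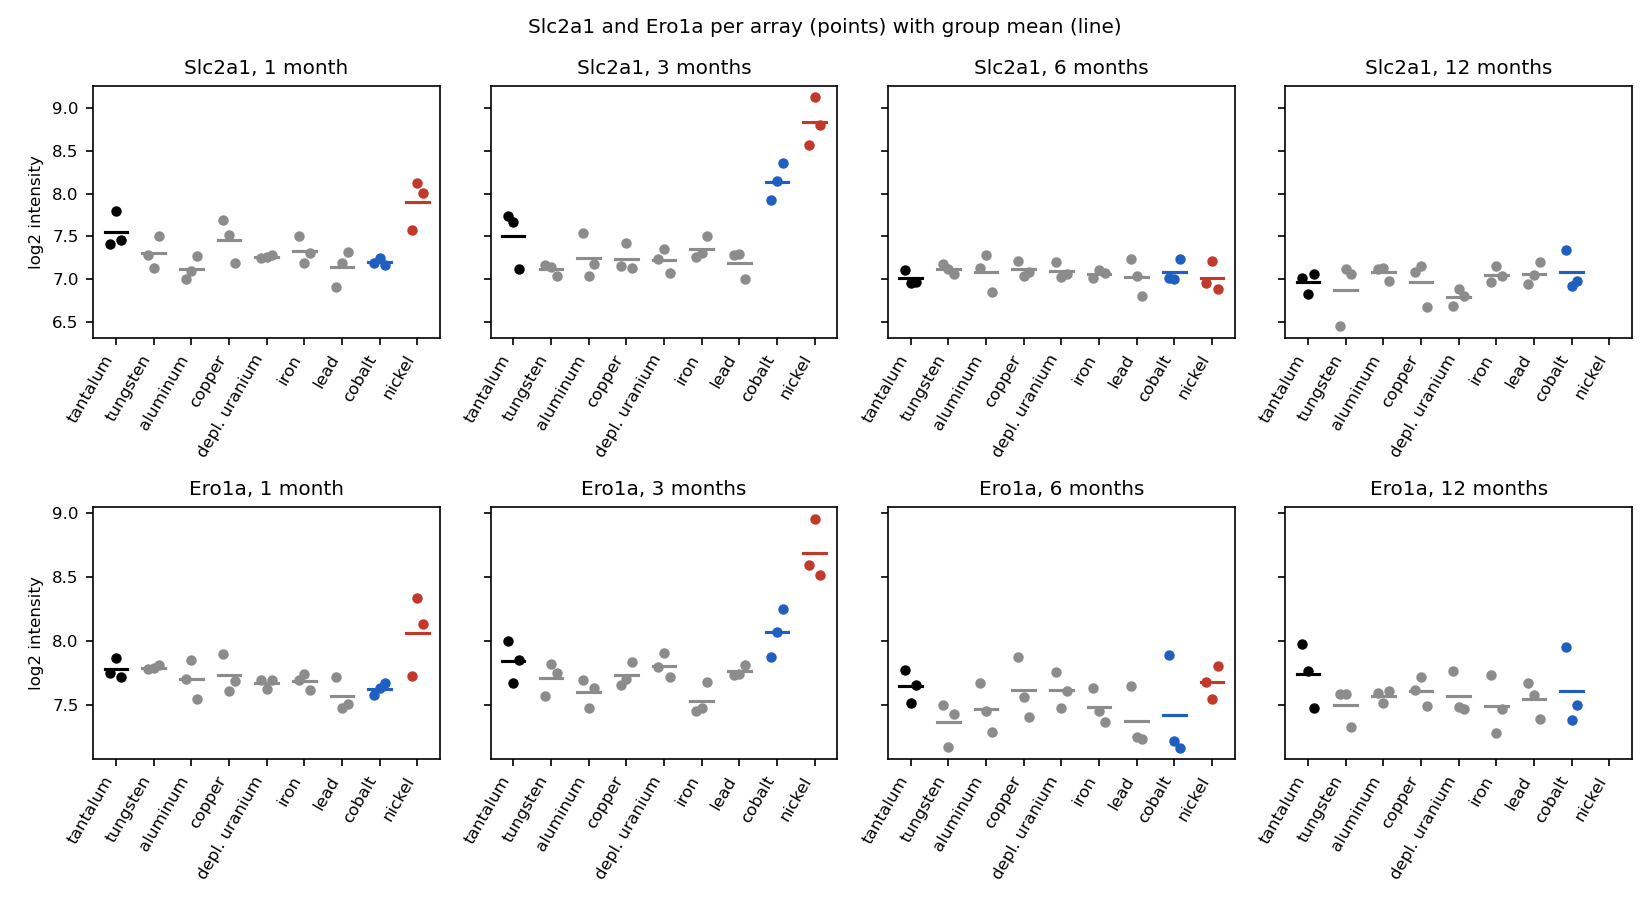
Log2 intensity (y axis) of Slc2a1 (upper row) and Ero1a (lower row) on every array, by metal (x axis) and month (panels); points are arrays and lines the mean of 3, with tantalum in black, cobalt in blue, nickel in red and the other metals in grey. The nickel arrays at 3 months are the highest for both genes, and no group stands apart for Slc2a1 at 6 months.

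Ordered over all 35 groups, Slc2a1 was highest in nickel at 3 months (8.83 ± 0.28), followed by cobalt at 3 months (8.14 ± 0.22), nickel at 1 month (7.90 ± 0.29) and tantalum at 1 month (7.56 ± 0.21), and lowest in depleted uranium at 12 months (6.79 ± 0.10). The step from the first to the second group was 3.74 times the pooled spread within groups, and those from the second to the third and the third to the fourth 1.31 and 1.85 times. From the fourth place on, no group differed from its neighbour by more than 0.554 of that spread.

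For Ero1a the nickel arrays at 3 months read 8.60, 8.95 and 8.52 and the tantalum arrays 8.00, 7.67 and 7.85. All nickel arrays were above all tantalum arrays, and the difference was 0.85 ± 0.14 (interval 0.56 to 1.13, adjusted p = 1.81e-05). It passed in every alternative run. Cobalt at 3 months gave 7.88, 8.07 and 8.25, overlapping tantalum (0.23 ± 0.14, adjusted p = 0.482). Against the other 6 metals of that month the cobalt difference was 0.37 and passed (adjusted p = 0.0136). Nickel at 1 month, at 7.73, 8.34 and 8.13, overlapped tantalum at 7.75, 7.87 and 7.72 (0.28 ± 0.14, adjusted p = 0.468). Nickel at 3 months was the highest of the 35 groups (8.69 ± 0.23), 3.58 times the pooled spread above the next, while cobalt at 3 months (8.07 ± 0.19) and nickel at 1 month (8.07 ± 0.31) shared second place. Cobalt at 6 and 12 months was spread widely, with 1 array at 7.89 and 7.95 and the others between 7.17 and 7.50.

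In the mean over its months, which includes the 3 month arrays, nickel was higher for the same 2 genes. Slc2a1 differed by 0.56 ± 0.09 (adjusted p = 6.53e-06) and Ero1a by 0.39 ± 0.08 (adjusted p = 0.0018), where 2.83% of probe sets passed. The rise was not sustained: at 6 months Slc2a1 stood at 7.02 with nickel and 7.01 with tantalum, and Ero1a at 7.68 and 7.65. In the mean over 4 months of cobalt, 0 of 10 genes passed in limma, against 1.15% of probe sets. An unadjusted p below 0.05 was reached by 0 of the genes and 1880 of 22954 probe sets. At single months away from 3, the share of all probe sets that passed was small, 0.00871% for cobalt at 1 month, 0.797% for nickel at 1 month and 0.00436% for cobalt at 12 months, and it was 0% for each metal at 6 months, where limma gave 1334 probe sets with cobalt and 1365 with nickel an unadjusted p below 0.05. In these 5 comparisons limma passed 0 of the 10 genes, with 1 at an unadjusted p below 0.05 for cobalt at 1 month, 3 for nickel at 1 month, 1 for cobalt at 12 months and 0 at 6 months. Over all 22954 probe sets that limit was met by 1447 for cobalt at 1 month, 2445 for nickel at 1 month and 1256 for cobalt at 12 months. With cobalt the gene was Slc2a1 at 1 month and Vegfa at 12 months, each lower. With nickel at 1 month Slc2a1 and Ero1a were higher and Vegfa was lower.

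The metals were also compared directly. At 3 months cobalt lay below nickel for Slc2a1 (-0.69 ± 0.15, adjusted p = 0.00164) and Ero1a (-0.62 ± 0.14, adjusted p = 0.00339), in a comparison where 2.2% of probe sets passed. Without nickel replicate 2, the highest array for both genes, neither passed (-0.55, adjusted p = 0.0731, and -0.49, adjusted p = 0.11); without cobalt replicate 1 the Ero1a difference was -0.53 (adjusted p = 0.0724). With only the 6 arrays, the adjusted p was 0.0926 for Slc2a1 and 0.0927 for Ero1a. At 1 month Slc2a1 alone of the 10 genes passed, lower with cobalt (-0.69 ± 0.15, adjusted p = 0.0108), where 0.484% of probe sets passed. Ero1a was lower with cobalt as well, at 7.63 ± 0.04 against 8.07 ± 0.31 with nickel, and did not pass. An unadjusted p below 0.05 was reached by 4 of the 10 genes and 2121 of 22954 probe sets. In that comparison 15 of 15 macrophage markers were also below 0, with a median of -0.70, and 3 passed; the list mean ran from 6.93 to 7.34 with cobalt and from 7.51 to 8.05 with nickel, and its part in the difference was not tested. The Slc2a1 call was lost without cobalt replicate 1 or 3 (adjusted p = 0.0618 and 0.0546), without nickel replicate 2 or 3 (0.179 and 0.152) and when fewer arrays were fitted (0.134 with those of the month and 0.505 with the 6). At 6 months limma passed 0 of 10 genes and 0% of probe sets, with 1 gene and 858 probe sets at an unadjusted p below 0.05.

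The excess over tantalum changed with time. For cobalt, the Slc2a1 difference at 3 months exceeded that at 1 month by 0.98 ± 0.21 (adjusted p = 0.000861), with 3.66% of probe sets passing. From 3 to 6 months limma passed 0 of 10 genes, against 3.95% of probe sets. An unadjusted p below 0.05 was reached there by 2 of the genes and 3007 of 22954 probe sets. Ero1a, at -0.45 (adjusted p = 0.287), passed without cobalt replicate 1 (-0.78, adjusted p = 0.0108). For nickel, the gain from 1 to 3 months was also 0.98 ± 0.21 (adjusted p = 0.0397), 1 of the 10 genes among 0.0523% of probe sets. It was lost without nickel replicate 1 or 2 (adjusted p = 0.205 and 0.153), without tantalum replicate 2 or 3 (0.179 and 0.271) and with each array centred on its median (0.0582). From 3 to 6 months the nickel excess fell by 1.32 for Slc2a1 (SE 0.21, adjusted p = 2.14e-05) and by 0.82 for Ero1a (SE 0.20, adjusted p = 0.0122), where 1.69% of probe sets passed. The Ero1a fall was lost without nickel replicate 2 (-0.62, adjusted p = 0.213) and also without replicate 2 of tantalum (-0.80, adjusted p = 0.0553).

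The glycolytic genes beside the transporter did not pass. Ldha, the lactate dehydrogenase subunit that regenerates NAD, read 12.69 ± 0.10 with cobalt, 12.72 ± 0.10 with nickel and 12.80 ± 0.03 with tantalum at 3 months. Its intervals ran from -0.36 to 0.15 for cobalt and from -0.34 to 0.18 for nickel, so an increase as large as that of Slc2a1 with either metal lies outside them. Pdk1, a kinase that inhibits pyruvate dehydrogenase, differed by -0.06 ± 0.18 with cobalt and 0.15 ± 0.18 with nickel, with overlapping arrays. Pfkfb3 makes the compound that activates phosphofructokinase. Its arrays ranged from 8.12 to 9.00 with cobalt, from 8.28 to 8.60 with nickel and from 8.46 to 8.92 with tantalum, for differences of -0.17 ± 0.32 and -0.28 ± 0.32. Its spread within groups was 0.41, above 99.4% of probe sets and about double the median of 0.20, so its intervals are the widest of the 10. The highest Pfkfb3 group was nickel at 6 months, at 9.15, 9.24 and 9.79, against tantalum at 8.70, 8.67 and 9.07 (0.59 ± 0.32, adjusted p = 0.865). Same-numbered arrays paired in that comparison, and with the replicate number as a block the adjusted p was 0.706.

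Vegfa, the growth factor that draws vessels towards tissue short of oxygen, passed the test in no cobalt or nickel group. At 3 months its arrays read 10.90, 10.84 and 10.82 with cobalt, 10.79, 10.97 and 10.74 with nickel and 11.09, 10.83 and 10.84 with tantalum. The groups overlapped, and the differences were -0.06 (interval -0.28 to 0.16) and -0.09 (interval -0.31 to 0.14). At 1 month with nickel it was lower, at 10.73, 10.71 and 10.51 against 11.06, 11.16 and 10.81 with tantalum. The difference of -0.36 ± 0.11 did not pass (adjusted p = 0.106). It passed in 1 of its 16 alternatives, without tantalum replicate 3 (-0.46, adjusted p = 0.0307). Adm, which encodes the vessel-widening peptide adrenomedullin, had its highest group mean in nickel at 3 months. Its nickel arrays read 6.67, 6.86 and 6.30 and its tantalum arrays 6.24, 6.01 and 6.44, which overlap (0.38 ± 0.18, adjusted p = 0.341). With cobalt Adm differed by 0.02 ± 0.18, and the sign turned with the scaling, to -0.03 after a second quantile normalization and -0.04 after centring.

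Bnip3, Egln3 and Ankrd37 complete the group. Bnip3 marks mitochondria for removal; it read 10.89, 10.93 and 11.01 with cobalt, 11.10, 10.99 and 10.92 with nickel and 11.23, 10.98 and 10.98 with tantalum at 3 months, and the groups overlapped. Egln3 is one of the prolyl hydroxylases and, being induced by the factor it restrains, forms a feedback loop. It differed by 0.05 ± 0.16 with cobalt and 0.04 ± 0.16 with nickel, neither passing. Ankrd37, an ankyrin repeat protein, was close to background: its group means at 3 months were 4.25, 4.40 and 4.50 with cobalt, nickel and tantalum, beside the background of 4.09. A level this dim leaves little room for a fall. No rise was seen with either metal, and whether this probe set would show one was not tested.

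The other 6 metals give the range these genes show without cobalt or nickel. In their 24 comparisons with tantalum, limma passed 0 of 240 gene tests, 15 had an unadjusted p below 0.05, and 0.168% of all probe set tests passed. At that unadjusted limit the count over all 22954 probe sets ran from 875 (depleted uranium at 3 months) to 4609 (lead at 1 month). In their means over 4 months, 0 of 60 passed, with 7 at an unadjusted p below 0.05 and 0.0639% of probe set tests passing. For these means the unadjusted count over all 22954 probe sets ran from 1435 (tungsten) to 4291 (lead). Slc2a1 ranged from -0.44 (aluminum at 1 month) to 0.11 and Ero1a from -0.31 (iron at 3 months) to 0.01, the latter below tantalum in 23 of the 24. All these comparisons of a month share the same 3 tantalum arrays. The smallest adjusted p values were in lead at 1 month. There Slc2a1 read 6.91, 7.19 and 7.32, lower than tantalum on average (-0.42 ± 0.15, adjusted p = 0.102). It did not pass in any of 16 alternatives, and the value was -0.16 (adjusted p = 0.418) with the other metals as the reference. Pdk1 read 8.99, 9.34 and 9.63 against 10.07, 10.02 and 9.31 with tantalum (-0.48 ± 0.18, adjusted p = 0.111). The Pdk1 arrays overlapped through tantalum replicate 3. It did not pass in 13 of 16 alternatives, down to -0.25 (adjusted p = 0.262) with the other metals as the reference; without tantalum replicate 3 the difference was -0.72 (adjusted p = 0.0291), without lead replicate 3 it was -0.63 (adjusted p = 0.0411), and with array weights it was -0.63 (adjusted p = 0.0312).

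**Figure D3:**
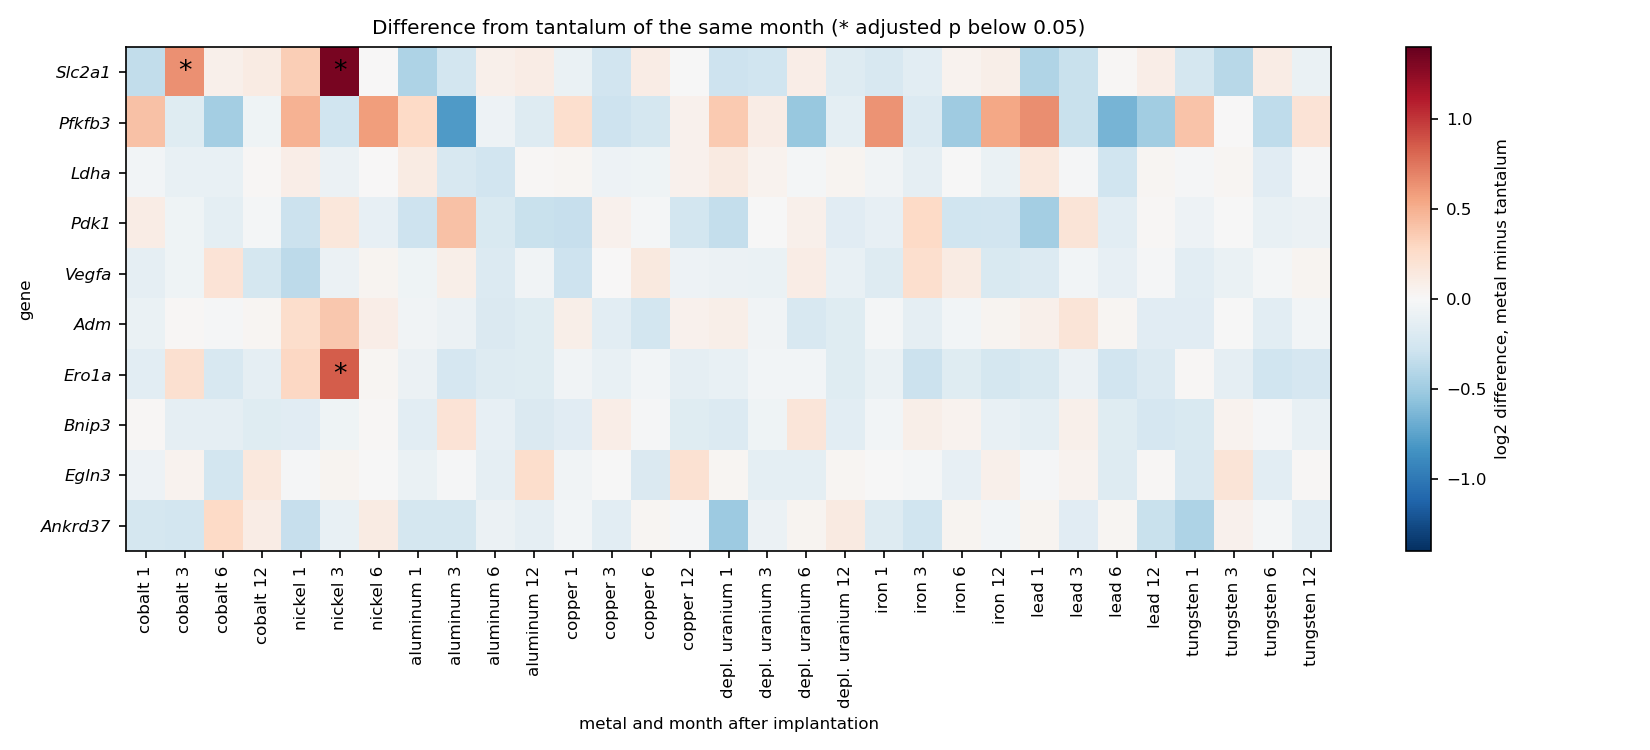
Log2 difference from tantalum of the same month (colour) for the 10 genes (rows) in all 31 metal and month comparisons (columns); an asterisk marks an adjusted p below 0.05. The 3 asterisks are Slc2a1 with cobalt and nickel and Ero1a with nickel, all at 3 months; Pfkfb3 shows the strongest colours without passing.

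Tantalum muscle itself changed with time in a few of these genes. Slc2a1 fell after the first 3 months, from 7.41, 7.79 and 7.46 at 1 month and 7.73, 7.67 and 7.12 at 3 months to 7.11, 6.96 and 6.97 at 6 months and 7.02, 6.83 and 7.07 at 12 months. The differences from 1 month were -0.54 ± 0.15 at 6 months (adjusted p = 0.022) and -0.58 ± 0.15 at 12 months (adjusted p = 0.00717). Without tantalum replicate 2 these were -0.40 at both times (adjusted p = 0.249 and 0.236), and without tantalum replicate 3 the value at 6 months was -0.57 (adjusted p = 0.11). Vegfa at 6 months, at 10.78, 10.68 and 10.45, was below its 1 month arrays (-0.37 ± 0.11, adjusted p = 0.0365). That call was lost after centring (adjusted p = 0.0788) and without any single tantalum replicate (0.0997 to 0.21). Egln3 lay the other way, at 9.56, 9.49 and 9.31 at 1 month and 9.88, 9.91 and 10.04 at 6 months (0.49 ± 0.16, adjusted p = 0.0547). It passed in 4 of 9 alternatives, among them the replicate number as a block (0.0119) and centring (0.0291). Between 1 month and 3, 6 and 12 months, 0.222%, 4.76% and 7.85% of probe sets passed. Of the 10 genes limma passed 0, 2 and 1. From 1 to 3 months 0 of the genes and 2324 of 22954 probe sets had an unadjusted p below 0.05. Markers of other cells fell against 1 month as well: 7 of 10 fibroblast and 3 of 9 endothelial markers at 6 months, and 8 of 10, 5 of 9 and 2 of 15 macrophage markers at 12 months. The fibroblast list mean ran from 9.37 to 10.14 at 1 month, from 8.69 to 8.84 at 6 months and from 8.41 to 8.62 at 12 months, and the macrophage list mean from 6.96 to 7.81, from 6.87 to 7.01 and from 6.82 to 6.98. Their part in the fall of Slc2a1 and Vegfa was not tested.

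**Figure D4:**
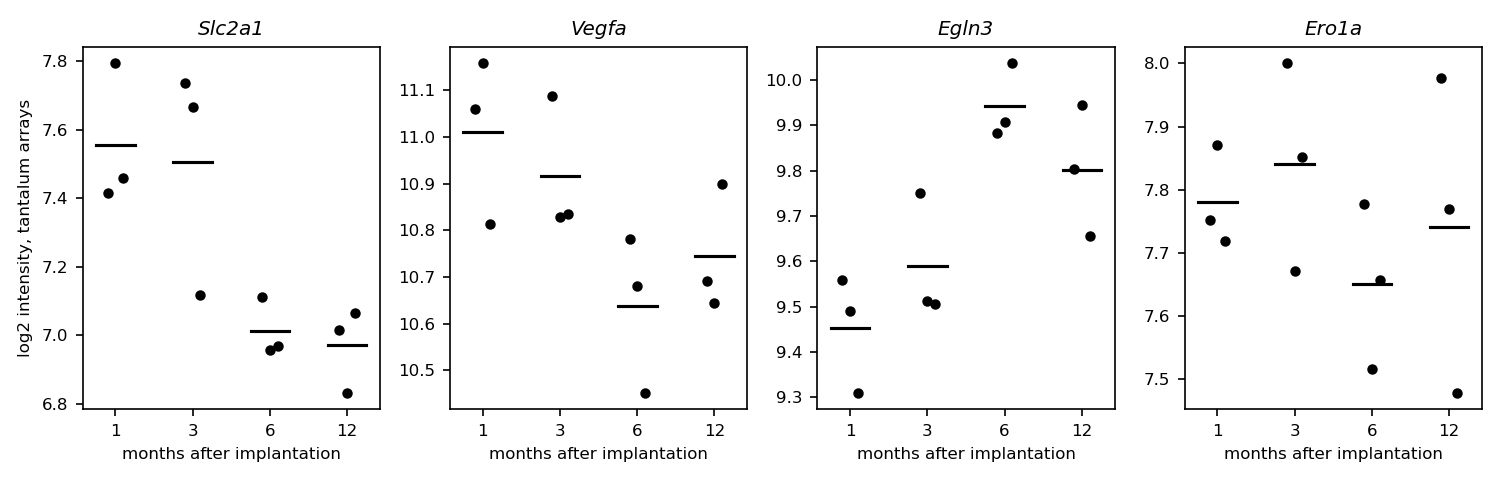
Log2 intensity (y axis) of 4 genes on the tantalum arrays at 1, 3, 6 and 12 months (x axis); points are arrays and lines the mean of 3, and each panel has its own y range. Slc2a1 and Vegfa are lower at 6 months than at 1 month, Egln3 is higher, and Ero1a overlaps at all times.

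Other known targets of the factor, from a list of 36 genes of which 32 were measured, passed in part. With nickel at 3 months 6 rose and 0 fell, where 3.42% of all probe sets passed, with a list median of 0.08; without nickel replicate 2 the count was 2. The 6 were Plod2 and Loxl2, enzymes that modify and crosslink collagen (1.27 ± 0.22 and 0.96 ± 0.20), the stress gene Ndrg1 (0.90 ± 0.18), the glucose transporter Slc2a3 (0.92 ± 0.21), the inducible nitric oxide synthase Nos2 (0.75 ± 0.19) and hexokinase Hk1 (0.47 ± 0.13). With cobalt 3 of 32 rose and 0 fell, near the 5.46% of all probe sets that passed, with a median of -0.01: the glycolytic enzymes Hk1 (0.71 ± 0.13), Pfkp (0.83 ± 0.15) and Pgam1 (0.47 ± 0.14). These counts are of genes that passed. An unadjusted p below 0.05 was reached by 11 higher and 4 lower with nickel, and by 5 higher and 5 lower with cobalt. Over all 22954 probe sets 3111 with nickel and 3526 with cobalt reached it. The adjusted p of Pfkp was 0.106 with only the 6 arrays, and Pgam1 was lost in 7 of its 16 alternatives. Plod2 and Loxl2 passed in every alternative, whereas without nickel replicate 2 Slc2a3 was 0.60 (adjusted p = 0.209), Ndrg1 0.62 (0.0826), Nos2 0.70 (0.0644) and Hk1 0.38 (0.229). Nos2 was also lost without tantalum replicate 3 (0.0751), and Hk1 with nickel was lost in 8 of its 16 alternatives.

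Cobalt and nickel differed from each other in some of these targets. At 3 months Plod2 (-1.09 ± 0.22, adjusted p = 0.000359), Ndrg1 (-0.77 ± 0.18, adjusted p = 0.00589) and Nos2 (-0.71 ± 0.19, adjusted p = 0.0173) were lower with cobalt, and Pfkp was higher (0.51 ± 0.15, adjusted p = 0.0468). The remaining 28 of the 32 did not pass, in a comparison where 2.2% of all probe sets passed. These calls between the metals were kept with the replicate block. The other alternatives, among them leaving out nickel replicate 2, were not run for these targets in this comparison. At 1 month 0 of 32 passed in limma against tantalum with either metal. An unadjusted p below 0.05 was reached by 4 with cobalt, all lower, and by 2 with nickel, each higher. Over all 22954 probe sets 1447 with cobalt and 2445 with nickel reached it.

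Of the factor itself and its regulators, 11 of 13 listed genes were measured and Hif1a, the oxygen-regulated subunit, was the 1 that passed at 3 months, a count near the shares over all probe sets (5.46% with cobalt and 3.42% with nickel). Its arrays read 8.97, 8.96 and 9.24 with cobalt, 9.13, 9.06 and 9.01 with nickel and 8.76, 8.50 and 8.68 with tantalum, so both metals lay wholly above tantalum, as did 11.1% and 9.75% of all probe sets. The differences were 0.42 ± 0.13 for each (adjusted p = 0.0294 with cobalt and 0.0397 with nickel). Neither was stable: with each array centred on its median the adjusted p was 0.0854 and 0.102, and the calls were lost in 6 and 9 of 16 alternatives, including without tantalum replicate 2 (0.203 and 0.22) or 3 (0.0647 and 0.0964), without cobalt replicate 3 (0.295) and without any single nickel replicate (0.192, 0.119 and 0.0503). Epas1, the second alpha subunit, was -0.23 ± 0.10 and -0.24 ± 0.10 and did not pass (adjusted p = 0.185 and 0.176). Vhl, which carries the subunits to destruction, differed by -0.08 ± 0.12 and 0.05 ± 0.12.

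**Figure D5:**
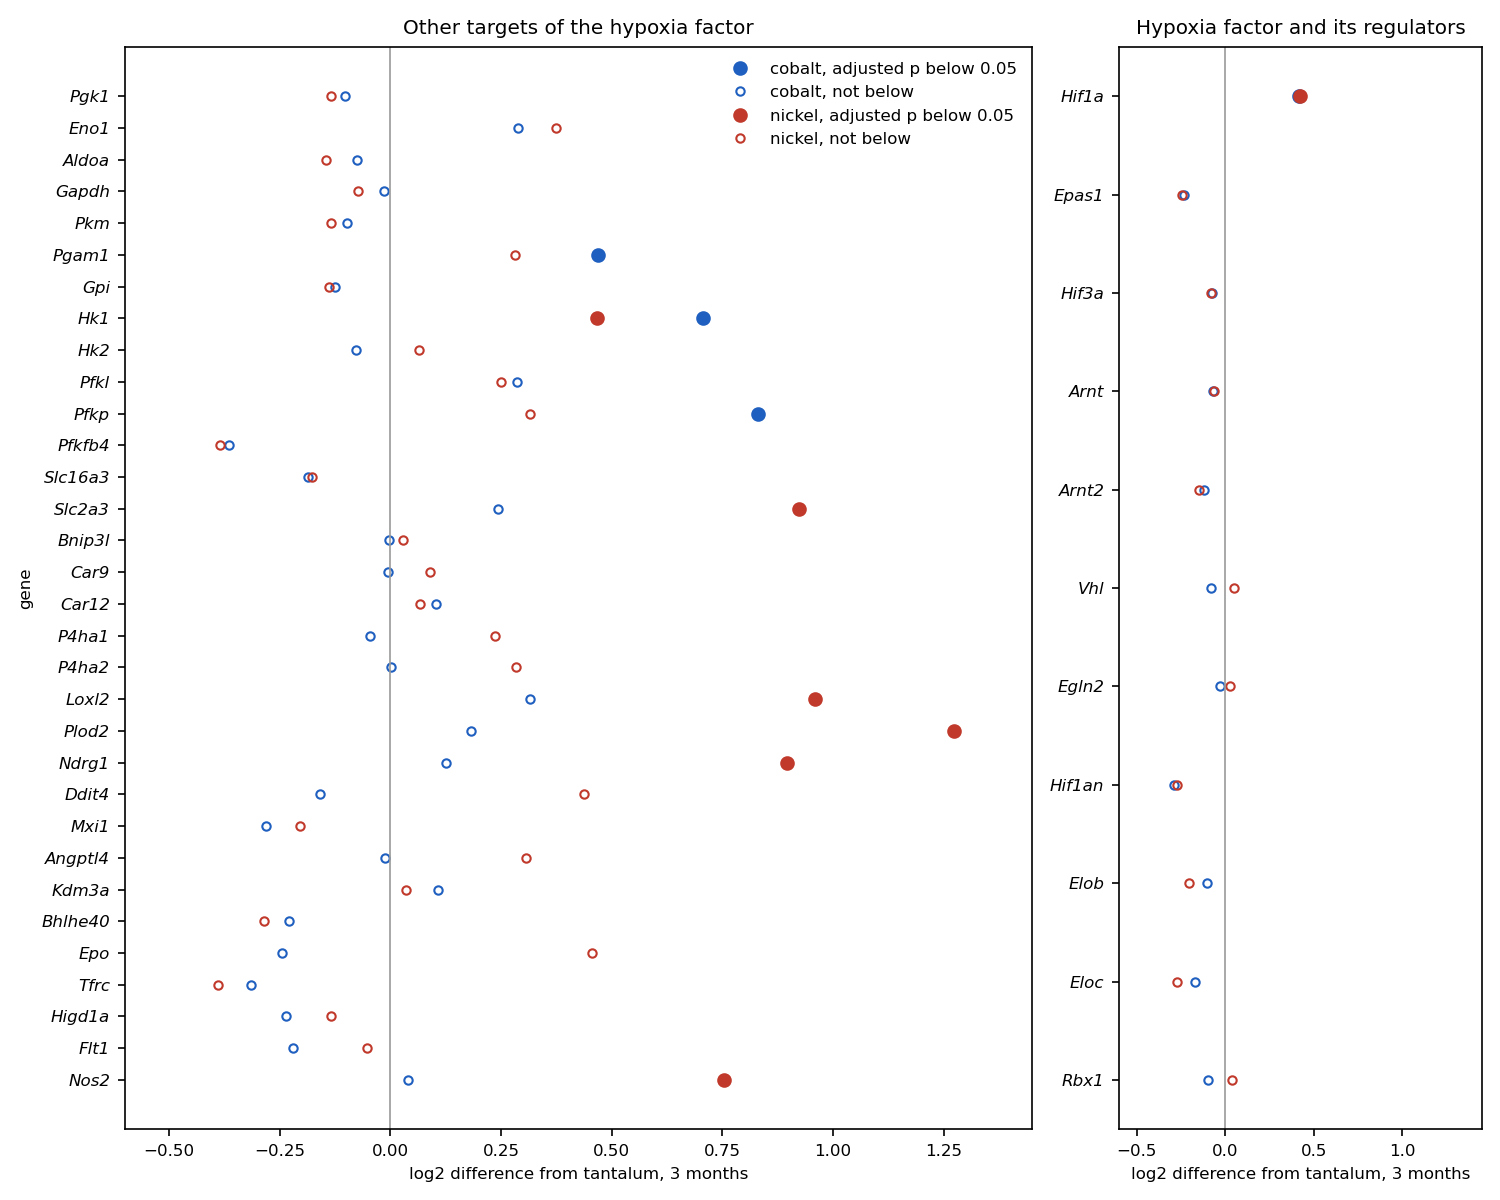
Log2 difference from tantalum at 3 months (x axis) for other targets of the hypoxia factor (left, 32 genes) and for the factor and its regulators (right, 11 genes), cobalt in blue and nickel in red; filled points have an adjusted p below 0.05. Plod2, Loxl2, Slc2a3, Ndrg1 and Nos2 are filled for nickel alone, Pfkp and Pgam1 for cobalt alone, and Hk1 and Hif1a for both; whether the metals differ was tested separately.

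Genes of other stress pathways also rose at 3 months. Hmox1, the heme-degrading enzyme induced by metals and oxidants, rose from 5.97 ± 0.18 with tantalum to 9.79 ± 0.43 with cobalt and 9.27 ± 0.66 with nickel. The metallothionein Mt1, which binds metal ions, rose from 7.25 ± 0.15 to 8.58 ± 0.22 and 10.34 ± 0.71, and Mt2A rose with both (0.83 ± 0.24 and 1.95 ± 0.24). At 3 months 5.46% of all probe sets passed with cobalt (1119 higher and 135 lower) and 3.42% with nickel (647 higher and 137 lower). Of 9 genes of this list 3 rose with each metal, and 1 fell with cobalt (Mt3, -0.49 ± 0.16). With nickel at 1 month replicate 1 was the lowest array for these genes and for Slc2a1: it read 6.76 for Hmox1, 8.18 for Mt1 and 7.57 for Slc2a1, against 9.10 and 9.16, 9.96 and 9.88, and 8.12 and 8.00 in the other replicates.

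Ero1a also belongs to the machinery of protein folding. Of 17 measured genes of the unfolded protein response 8 passed as higher and 0 as lower with cobalt at 3 months, where 5.46% of all probe sets passed. With nickel 6 passed as higher and 1 as lower, where 3.42% passed. An unadjusted p below 0.05 was reached by 8 higher and 2 lower with cobalt, and by 9 higher and 1 lower with nickel. Over all 22954 probe sets 3526 with cobalt and 3111 with nickel reached it. Most probe sets that passed were higher with either metal. Both metals raised the disulfide isomerase Pdia4 (1.25 ± 0.13 with cobalt and 1.08 ± 0.13 with nickel), Asns, which makes asparagine (1.26 ± 0.22 and 1.60 ± 0.22), and the chaperones Hspa5 (0.46 ± 0.10 and 0.55 ± 0.10) and Hsp90b1 (0.75 ± 0.15 and 0.65 ± 0.15). Creld2 rose by 1.22 ± 0.17 and 0.67 ± 0.17 and Pdia6 by 0.42 ± 0.10 and 0.38 ± 0.10. The 1 that fell with nickel was Chac1 (-0.98 ± 0.29, adjusted p = 0.0333), which degrades glutathione. With cobalt Chac1 was lower too, short of the threshold (adjusted p = 0.0695). It passed there with the replicate number as a block (adjusted p = 0.0404). Ero1a itself passed against tantalum with nickel alone. Between the metals at 3 months limma passed 0 of the 17 genes, where 2.2% of all probe sets passed. An unadjusted p below 0.05 was reached there by 1 higher and 1 lower with cobalt, and by 2032 of 22954 probe sets. Pdia4 differed by 0.17 ± 0.13, cobalt minus nickel (adjusted p = 0.896). The part of this response in the rise of Ero1a was not tested.

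Markers of other cells moved in the same groups. With cobalt 13 of 15 macrophage markers and 10 of 10 lymphocyte markers rose, and 0 of 10 fibroblast markers passed in limma (3 had an unadjusted p below 0.05). With nickel the counts were 11 of 15, 1 of 10 and 7 of 10. Of all 22954 probe sets 5.46% passed with cobalt and 3.42% with nickel, most of them higher. An unadjusted p below 0.05 was reached by 3526 probe sets with cobalt and 3111 with nickel. The mean level of the macrophage list ran from 8.27 to 8.85 with cobalt, from 7.94 to 8.31 with nickel and from 7.06 to 7.52 with tantalum at 3 months: both metals lay above tantalum, and the ranges of cobalt and nickel overlapped. The fibroblast list ran from 8.93 to 9.55, from 9.69 to 9.85 and from 8.80 to 8.99, and the lymphocyte list from 6.98 to 7.25, from 5.52 to 5.83 and from 5.25 to 5.39. The fibroblast ranges of cobalt and nickel did not overlap, with nickel higher, and neither did the lymphocyte ranges, with cobalt higher. Of the 10 lymphocyte markers, 7 with tantalum, 6 with nickel and 0 with cobalt had group means below 5.45. That level bounds the dimmest 30% of probe sets. Slc2a1 and Ero1a were higher with nickel. Of 38 endothelial, erythroid, Schwann cell, adipocyte and skeletal muscle markers limma passed 0 with either metal, 0 having an unadjusted p below 0.05 with cobalt and 1 with nickel, and of 7 neutrophil markers 1 rose with nickel. The part of these cells in the rise of Slc2a1 and Ero1a was not tested.

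Each gene was also set beside all named genes for likeness of pattern, as Pearson's r over the 35 group means, as a description without a test; the group means come from 1 set of arrays and share its normalization. The 3 genes most like Slc2a1 were the chemokine Ccl3 (0.934), the interleukin-1 antagonist Il1rn (0.930) and the lysosomal protease Lgmn (0.923). The 3 most like Ero1a were Slc2a1 itself (0.887), the oncostatin M receptor Osmr (0.880) and the tetraspanin Cd82 (0.870). Among the other 8 genes r with Slc2a1 did not exceed 0.357 (Adm). Ldha was most like Pgk1 (0.831), Idh3a (0.805) and Sar1b (0.776), Vegfa most like Vgll2 (0.869), Ndufs7 (0.866) and Irs2 (0.858), and Egln3 most like Cd55 (0.911), Rab21 (0.905) and Rab5a (0.904). Bnip3 was most like Prxl2a (0.838), Usp13 (0.823) and Nudt4 (0.794), and Pdk1 most like Akap6 (0.863), Galnt5 (0.832) and Slc35d1 (0.820). The closest genes reached only 0.619 for Ankrd37 (Rbak), 0.675 for Adm (Vsig4) and 0.605 for Pfkfb3 (Cmpk2).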

How the data were processed

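Per the labels and the submitters' processing notes, the authors made the deposited log2 intensities, 1 per probe set of the Clariom S Rat array, by RMA, which corrects background, equalises the arrays' distributions and summarises probes, with oligo under R 4.0.1; whether in 1 run is not given in the sources used here. Of 22977 probe sets, 23 controls were left out; symbols came from a gene table for GRCr8. A limma 3.58.1 model under R 4.3.3 held 1 mean for each group over every array (70 residual and 7.25 prior degrees of freedom), two-sided, adjusted by Benjamini-Hochberg per comparison, in 49 comparisons. The code was tested on simulated data. The number of arrays limits the precision.

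Named are the 10 genes in every comparison, up to 6 members of each list that passed in the comparison described, and the 3 genes most alike in pattern. Members and lists were chosen with earlier results of these data known. Same-numbered arrays were checked for pairing: in 13 of 31 month comparisons all 3 correlations of deviations exceeded 0.1, with cobalt at 6 and 12 months and nickel at 6 months among them, and none of cobalt and nickel at 1 or 3 months.

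Alternatives were the replicate block, leaving out the dimmest 30%, quantile normalization a second time, median centring, an intensity trend, array weights, fewer arrays, the other metals as reference, adjustment over all 31 comparisons, and leaving out arrays; leaving out 5 arrays low in muscle markers was added after seeing the data.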

Additional observations from a re-analysis of the deposited data

Results flagged for a closer look

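Differences between metals or months that passed a test of the difference itself are repeated here as values. Between cobalt and nickel, Slc2a1 differed by -0.69 ± 0.15 at 1 month (adjusted p = 0.0108, limma) and by -0.69 ± 0.15 at 3 months (adjusted p = 0.00164), and Ero1a by -0.62 ± 0.14 at 3 months (adjusted p = 0.00339), cobalt minus nickel. Between months, the Slc2a1 difference from tantalum grew from 1 to 3 months by 0.98 ± 0.21 with cobalt (adjusted p = 0.000861) and by 0.98 ± 0.21 with nickel (adjusted p = 0.0397). From 3 to 6 months the nickel difference changed by -1.32 ± 0.21 for Slc2a1 (adjusted p = 2.14e-05) and by -0.82 ± 0.20 for Ero1a (adjusted p = 0.0122). Groups of 3 arrays were not screened for outlying arrays.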

How the results depend on the processing

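Slc2a1 and Ero1a with nickel at 3 months and in the nickel mean, and the Slc2a1 changes with cobalt from 1 to 3 months and with nickel from 3 to 6 months, passed in every alternative run. The number of the 10 genes that passed was otherwise as follows; leaving out arrays assumes that the remaining ones vary like the other groups. With the replicate number as a block, 1259 probe sets passed for nickel at 3 months and 2 genes of the factor's regulators for cobalt; it gained 1 and lost 0 of 490 tests of the 10 genes (Egln3 in tantalum from 1 to 6 months), and at 3 months it gained 10 and lost 0 of 447 tests of the listed genes, Mxi1, Hif1an and Chac1 with cobalt among them. After centring it was 0 for nickel from 1 to 3 months. With array weights it was 1 over the 24 comparisons of other metals, and 1995 (cobalt) and 1445 (nickel) probe sets passed at 3 months. With arrays of the same month it was 0 for cobalt minus nickel at 1 month; with the 6 arrays it was 0 there, 0 at 3 months and 0 for cobalt at 3 months, with 351 probe sets for nickel. With the other metals as reference it was 2 for cobalt at 3 months and 1 for nickel at 1 month, with 2205 and 1364 probe sets at 3 months. Adjustment over 31 comparisons left 790 and 400 probe sets. Leaving out arrays gave 0 to 1 of the genes for cobalt at 3 months, nickel at 1 month, the change with cobalt from 3 to 6 months, the change with nickel from 1 to 3 months, tantalum from 1 to 6 months and the other metals, 0 to 2 for cobalt minus nickel at 1 and at 3 months and for tantalum from 1 to 12 months, 1 to 2 for nickel from 3 to 6 months, and 419 to 935 probe sets for nickel at 3 months. Adm with cobalt at 3 months (0.02) turned to -0.026 (second quantile normalization), -0.037 (centring), -0.000931 (array weights) and lay between -0.12 and 0.19 without single arrays. Each gene had 1 probe set, so averaging probe sets was not run. The causes were not tested.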
